A study of Mus musculus with 24 samples.

Results

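The 10 genes described here encode amino acid transporters of the solute carrier (Slc) families: Slc7a11, Slc7a5, Slc3a2, Slc7a1, Slc7a3, Slc38a2, Slc1a5, Slc1a4, Slc6a9 and Slc43a1. They were found through the RefSeq transcript that the scanner files give for each probe, and 13 probes matched them, of 56605 probes for 23787 named genes on the array. All 10 genes were tested by at least 1 probe that was well above background on all 24 arrays. Slc7a11, Slc3a2 and Slc43a1 had 2 probes, and the one with the higher mean signal over all arrays stands for the gene unless the second probe is named. The cells were TM3, a mouse Leydig cell line that was grown with 5% horse serum and 2.5% fetal bovine serum, washed, suspended in a binding buffer and placed in electroporation cuvettes. They were then sham-exposed or exposed to a nanosecond pulsed electric field (nsPEF), given as 80 pulses of 60 ns and 5.5 kV at 26.4 pulses per minute, a field of 14 kV/cm, for 180 s. RNA was collected at 0, 4 and 24 h after sham exposure (S0, S4 and S24) or nsPEF exposure (E0, E4 and E24), which makes 6 groups of 4 biological replicates. Sham-exposed cells went through the same washing, suspension and cuvette steps.

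Amino acid transporters bring building blocks for protein synthesis, glutathione and nitrogen metabolism through the plasma membrane. Some work alone, such as the cationic amino acid transporters Slc7a1 and Slc7a3. Others are light chains that reach the cell surface bound to the heavy chain Slc3a2 (CD98), such as Slc7a11, which takes up cystine in exchange for glutamate, and Slc7a5, which exchanges large neutral amino acids. Many of these genes are known targets of Atf4, the transcription factor of the amino acid and stress response, which binds C/EBP-ATF response elements, and Slc7a11 is also a known target of Nrf2, which binds antioxidant response elements. Leydig cells are the testosterone-producing cells of the testis.

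The values are levels on the log2 scale: log2 of the scanner's processed signal, from which the log2 of the 75th percentile of that array was subtracted, so that a level of 0 is the 75th percentile of the array. They compare arrays for the same probe and not one probe with another. A change is called where limma's test gave a Benjamini-Hochberg adjusted p under 0.05 over 37684 tested probes, and each difference below is given on the log2 scale with its 95% confidence interval. The 75th percentile of the arrays lay between 202 and 533 intensity units, and between 51.4% and 62.2% of the probes were well above background, with 57.6 to 62.2% on the 12 sham arrays and 51.4 to 57.5% on the 12 nsPEF arrays. Each of the 3 time points was on a slide of its own, so that time and slide cannot be told apart, and the sham arrays lay in row 1 and the nsPEF arrays in row 2 of each slide, so that treatment and row cannot be told apart either. In samples of whole cultures, fewer cells of a kind and less RNA per cell cannot be told apart. Of 9 Leydig cell markers, 8 were on the array, of which Star, Cyp17a1 and Nr5a1 were well above background on all 24 arrays, Hsd3b1 on 1 array, and Cyp11a1, Hsd3b6, Hsd17b3 and Lhcgr on none. The fibroblast markers Col1a1, Col1a2, Pdgfra and Dcn were above background on all 24 and Lum, the other marker of that list, on 1. Markers of other cell types were above background on all 24 arrays too: 2 of 6 for Sertoli cells, 1 of 5 for germ cells and 3 of 5 for macrophages. For endothelial cells it was 1 of 4, and for peritubular myoid and smooth muscle cells 2 of 4.

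Promoter sequences were read from RefSeq (GRCm38.p6), from 250 bases before to 50 bases after the transcript start, and the table held 10 promoters of 7 of the 10 genes. Slc7a5, Slc1a5 and Slc7a3 had no entry. The C/EBP-ATF response element was searched as TGATGNAA and the antioxidant response element as TGACNNNGC, on both strands. The first was found in 3.97% and the second in 12.4% of all 32851 promoters of this length. Shown here are the promoters of both genes that hold the first motif and, of those that hold the second, those of Slc7a1 and Slc38a2, which moved in opposite directions at 4 h. Each is written 5′ to 3′ on the strand of the gene, with the matched letters in capitals.
Slc7a11, chr3:50443564-50443863, minus strand: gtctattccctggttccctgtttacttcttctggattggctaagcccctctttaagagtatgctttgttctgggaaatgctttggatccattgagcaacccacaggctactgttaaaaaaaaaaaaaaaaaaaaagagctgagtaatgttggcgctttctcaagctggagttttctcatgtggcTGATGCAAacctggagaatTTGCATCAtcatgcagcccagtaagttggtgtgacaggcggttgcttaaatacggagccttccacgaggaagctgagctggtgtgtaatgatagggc
Slc1a4, chr11:20332664-20332963, minus strand: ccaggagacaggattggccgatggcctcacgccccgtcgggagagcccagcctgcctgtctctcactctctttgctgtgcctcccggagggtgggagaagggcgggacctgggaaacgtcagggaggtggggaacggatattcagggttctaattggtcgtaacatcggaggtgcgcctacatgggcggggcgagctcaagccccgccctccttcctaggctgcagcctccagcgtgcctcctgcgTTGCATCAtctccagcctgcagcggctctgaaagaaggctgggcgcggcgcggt
Slc7a1, chr5:148399855-148400154, minus strand: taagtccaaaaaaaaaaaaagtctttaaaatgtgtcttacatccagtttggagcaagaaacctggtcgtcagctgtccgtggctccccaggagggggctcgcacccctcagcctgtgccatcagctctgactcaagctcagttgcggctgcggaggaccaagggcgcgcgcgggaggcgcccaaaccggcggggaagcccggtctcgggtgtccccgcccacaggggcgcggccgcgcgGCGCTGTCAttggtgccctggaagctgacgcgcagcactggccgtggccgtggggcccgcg
Slc38a2, chr15:96699679-96699978, minus strand: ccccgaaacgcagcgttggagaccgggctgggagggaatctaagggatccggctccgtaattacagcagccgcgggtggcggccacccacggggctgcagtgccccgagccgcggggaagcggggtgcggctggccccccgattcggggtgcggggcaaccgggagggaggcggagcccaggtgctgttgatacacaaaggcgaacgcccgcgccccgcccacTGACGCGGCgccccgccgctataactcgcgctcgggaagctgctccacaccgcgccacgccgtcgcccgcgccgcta
The Slc7a11 promoter held the C/EBP-ATF motif at 2 places that did not overlap, from -66 to -59 and from -47 to -40 relative to the start. In Slc1a4 the same motif crossed the start, from -4 to 4. The antioxidant response motif was matched in Slc7a1 from -11 to -3 and in Slc38a2 from -27 to -19, and further matches lay in 2 of the 3 Slc6a9 promoters and in the Slc43a1 promoter. The Slc3a2 promoter and a second promoter of Slc7a1 held neither. A match of letters is a description of the sequence and was not tested as a site.

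Time after exposure was the main difference among these genes, and the 4 h cultures stood apart. From 0 h to 4 h in sham-exposed cells, 7 of the 10 genes were called (65.4% of the 16842 genes with a tested probe were, 30.8% as higher and 34.6% as lower), of which Slc7a1, Slc7a11, Slc7a3 and Slc3a2 rose and Slc6a9, Slc7a5 and Slc38a2 fell. After nsPEF the same 7 genes were called in the same directions and Slc1a5 rose as well, so that 8 of 10 were called against 67.7% of all genes (34.8% as higher and 33% as lower). From 4 h to 24 h, 7 of the 10 genes were called in sham-exposed cells (65.5% of all genes, 31.7% as higher and 33.8% as lower) and 8 of 10 after nsPEF (63.4%, with 31.7% in each direction), each against its direction between 0 and 4 h. At 24 h compared with 0 h, 4 genes were lower in sham-exposed cells (38.6% of all genes were called, 15.7% as higher and 22.8% as lower) and 4 after nsPEF (45.8%, 24.3% as higher and 21.5% as lower), and none was higher. Slc1a4 and Slc43a1 were called in none of these comparisons. These shares were near those of the whole array. The median difference of the 10 genes from 0 h to 4 h was 0.21 in sham-exposed and 0.36 in nsPEF-exposed cells, beside -0.04 and 0.05 over all genes. With arrays scaled to spike-in RNA instead, 8 genes, Slc1a4 and Slc43a1 among them, were called at 24 h against 0 h in sham-exposed cells, all higher, where 76.3% of all tested probes were called and 98.1% of those were higher.

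**Figure D1:**
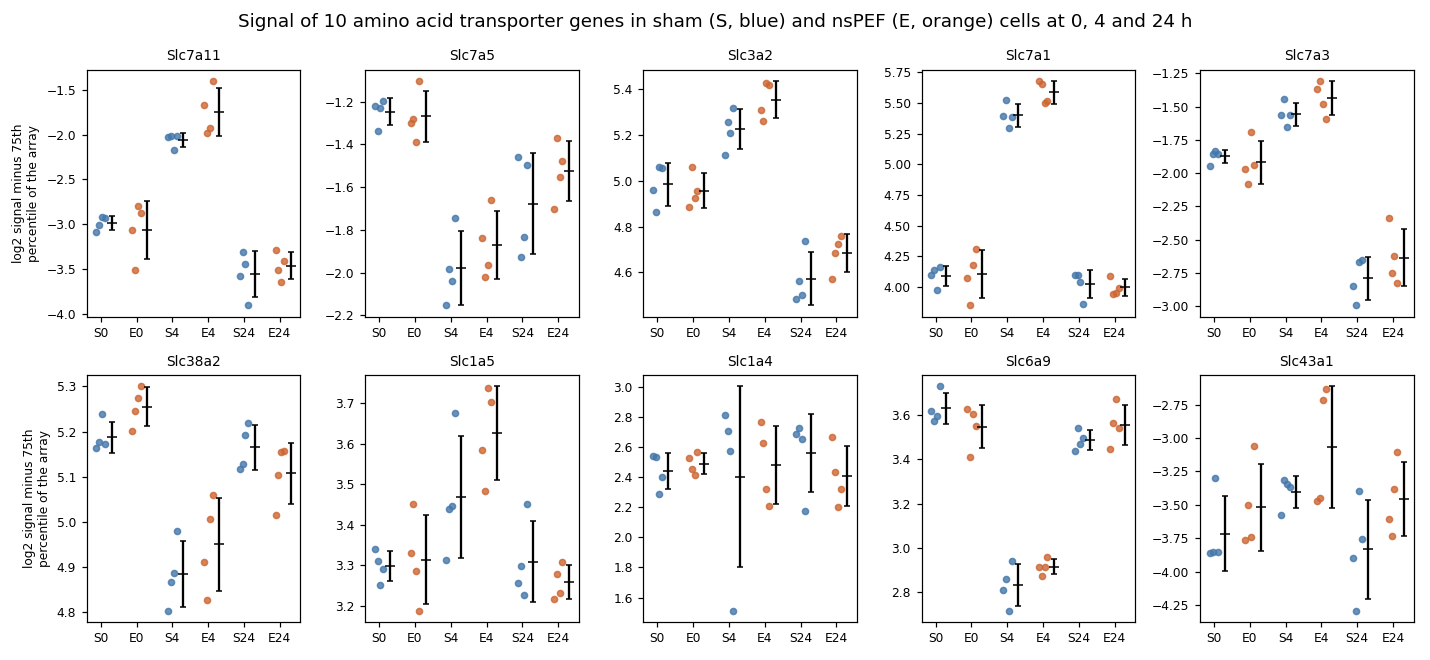
Level of each of the 10 genes on every array (log2 of the processed signal minus the 75th percentile of the array, vertical axis with its own range in each panel) in the 6 groups, sham in blue (S) and nsPEF in orange (E) at 0, 4 and 24 h. Points are the 4 replicates of a group and the black bar is their mean with its SD. For Slc7a1 and Slc7a11, the sham and nsPEF arrays of 4 h lay above every array of 0 and 24 h, and for Slc6a9 they lay below.

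The cationic amino acid transporters rose at 4 h, and Slc7a1 had the largest rise of the 10 genes. Slc7a1 (CAT1), the widely expressed carrier of arginine, lysine and ornithine, had levels of 4.09, 4.14, 3.98 and 4.16 in S0, 5.39, 5.52, 5.30 and 5.39 in S4, and 4.10, 4.10, 4.04 and 3.86 in S24. After nsPEF its levels were 4.08, 3.85, 4.18 and 4.31 in E0, 5.68, 5.66, 5.50 and 5.51 in E4, and 4.09, 3.95, 3.95 and 3.99 in E24. All 8 arrays of 4 h were higher than all 16 others, and the groups of 0 and 24 h overlapped. The rise from 0 to 4 h was 2.47-fold in sham-exposed cells, a difference of 1.31 (1.13 to 1.48, adjusted p = 2.57e-11 by limma), and 2.79-fold after nsPEF, a difference of 1.48 (1.31 to 1.65). From 4 to 24 h it fell by 1.38 in sham-exposed and by 1.59 in nsPEF-exposed cells, and the 24 h level differed from that of 0 h by -0.07 (-0.24 to 0.10) and -0.11 (-0.28 to 0.06), neither of which was called. The direction of this last difference turned where arrays were scaled to spike-in RNA, at 0.63 in sham-exposed and 0.37 in nsPEF-exposed cells. With that scaling the median difference of all probes was 0.70 and 0.54 in these comparisons.

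Slc7a3 (CAT3), a cationic amino acid transporter known mainly from brain, rose less at 4 h and was lower at 24 h than at the start. It stood at -1.94, -1.85, -1.83 and -1.86 in S0, at -1.57, -1.45, -1.65 and -1.56 in S4 and at -2.85, -2.99, -2.67 and -2.65 in S24. After nsPEF it stood at -1.97, -2.08, -1.69 and -1.94 in E0, at -1.37, -1.31, -1.48 and -1.60 in E4 and at -2.34, -2.75, -2.63 and -2.83 in E24. Within each treatment the 3 time points did not overlap. The sham difference from 0 to 4 h was 0.32 (0.10 to 0.53, adjusted p = 0.0114 by limma), and it was no longer called with the percentile taken over probes detected on all arrays (0.20) or with normexp background correction (0.09). After nsPEF it was 0.48 (0.27 to 0.69). At 24 h compared with 0 h the level was lower in sham-exposed cells (-0.92, -1.13 to -0.71) and after nsPEF (-0.72, -0.93 to -0.51). Under spike-in scaling these were -0.22 and -0.24 and were not called.

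Of the heteromeric transporters, the light chain Slc7a11 rose and the light chain Slc7a5 fell at 4 h, while their shared heavy chain Slc3a2 rose slightly by its main probe. Slc7a11 (xCT), the cystine and glutamate exchanger whose promoter is shown above with a pair of C/EBP-ATF motifs, had levels of -3.09, -3.01, -2.92 and -2.93 in S0, -2.03, -2.01, -2.17 and -2.02 in S4, and -3.58, -3.31, -3.44 and -3.90 in S24. In nsPEF-exposed cells the levels were -3.06, -3.51, -2.80 and -2.88 in E0, -1.67, -1.98, -1.93 and -1.40 in E4, and -3.29, -3.50, -3.64 and -3.41 in E24. The 4 h arrays were above all others, and all S24 arrays were below all S0 arrays. The rise from 0 to 4 h was 1.90-fold in sham-exposed cells, a difference of 0.93 (0.62 to 1.24, adjusted p = 1.55e-05 by limma), and 2.49-fold after nsPEF, a difference of 1.32 (1.01 to 1.63). It then fell by 1.50 and by 1.71 to 24 h. Against 0 h, the 24 h level was lower in sham-exposed cells (-0.57, -0.88 to -0.26) and after nsPEF (-0.40, -0.71 to -0.09, with E0 and E24 overlapping), although under spike-in scaling the direction turned to 0.13 and 0.08. The nsPEF call was lost without E0 replicate 1 (-0.40), 3 (-0.31) or 4 (-0.34) and without E24 replicate 2 (-0.38), 3 (-0.34) or 4 (-0.41).

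The second Slc7a11 probe, which carries the same transcript, also rose by 4 h and fell back by 24 h, and its differences at 24 h against 0 h (-0.29 in sham-exposed and -0.37 in nsPEF-exposed cells) were not called. Its levels were -4.84, -4.28, -3.83 and -4.34 in S0, -3.05, -3.14, -2.80 and -2.92 in S4, and -2.73, -2.75, -2.80 and -2.93 in E4. The probe was well above background on all 8 arrays of 4 h, on 3 of the S0 and 2 of the S24 arrays, and on none of E0 and E24. In sham-exposed cells it rose by 1.35 (1.01 to 1.68) from 0 to 4 h, a call that was lost with normexp background correction (0.15). After nsPEF the rise is known only as a bound, at least 2.81-fold, where the dim group was set for each array to the higher of the probe's own signal and the lowest signal well above background. The return to 24 h after nsPEF was likewise at least 2.45-fold, and both differences passed limma's test.

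Slc7a5 (LAT1), which exchanges leucine and other large neutral amino acids for glutamine, moved in the opposite direction. It measured -1.22, -1.34, -1.23 and -1.20 in S0, -2.15, -1.98, -2.04 and -1.74 in S4, and -1.46, -1.93, -1.83 and -1.49 in S24. After nsPEF it measured -1.30, -1.28, -1.39 and -1.10 in E0, -1.84, -2.02, -1.97 and -1.66 in E4, and -1.70, -1.37, -1.55 and -1.48 in E24. All arrays of 4 h were below all arrays of 0 h, whereas those of 24 h overlapped with those of 4 h. At 4 h the signal was 0.602 of that at 0 h in sham-exposed cells, a difference of -0.73 (-0.96 to -0.50, adjusted p = 8.15e-06 by limma), and 0.659 of it after nsPEF, a difference of -0.60 (-0.83 to -0.37). At 24 h it was still lower than at 0 h in sham-exposed cells (-0.43, -0.66 to -0.20), where spike-in scaling turned the difference to 0.27 and leaving out all arrays with replicate number 3 ended the call (-0.38). After nsPEF the difference was -0.26 (-0.49 to -0.03, adjusted p = 0.0678 by limma). The rise from 4 to 24 h was 0.30 in sham-exposed and 0.35 in nsPEF-exposed cells. In sham-exposed cells its call was lost without S4 replicate 1 (0.24) or 3 (0.28), without S24 replicate 1 (0.23) or 4 (0.24), with quantile normalization (0.23) and with centring by bands of rows (0.22). After nsPEF it was lost with the same centring (0.23) and with normexp (0.13).

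Slc3a2, the heavy chain that both light chains need at the plasma membrane, was read by 2 probes that disagreed. With the main probe (NM_008577) the levels were 4.96, 4.86, 5.06 and 5.06 in S0, 5.11, 5.26, 5.21 and 5.32 in S4, and 4.49, 4.56, 4.50 and 4.74 in S24. In nsPEF-exposed cells they were 4.89, 5.06, 4.92 and 4.95 in E0, 5.31, 5.26, 5.43 and 5.42 in E4, and 4.57, 4.68, 4.72 and 4.76 in E24. The 3 time points did not overlap within a treatment. The rise to 4 h was 1.18-fold in sham-exposed cells (0.24, 0.10 to 0.38, adjusted p = 0.00426 by limma) and 1.32-fold after nsPEF (0.40, 0.26 to 0.54). The sham rise was no longer called with quantile normalization (0.10), with the percentile over detected probes (0.12) or without all arrays with replicate number 2 (0.19). From 4 to 24 h the level fell by 0.65 in sham-exposed cells, a difference that was -0.00104 under spike-in scaling, and by 0.67 after nsPEF. At 24 h it was lower than at 0 h by this probe in sham-exposed (-0.41, -0.55 to -0.27) and nsPEF-exposed cells (-0.27, -0.41 to -0.13), but spike-in scaling turned these to 0.28 and 0.21.

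The second Slc3a2 probe, which is listed under another transcript of the gene (NM_001161413), was also well above background on all 24 arrays. It had levels of 2.70, 2.62, 2.88 and 2.61 in S0, 2.41, 2.35, 2.41 and 1.43 in S4, and 2.50, 2.34, 2.54 and 2.46 in E4. All S4 arrays lay below all S0 arrays, a difference of -0.55 (-0.92 to -0.19, adjusted p = 0.0104 by limma) where the main probe rose. S4 replicate 4 was far below the others, and without it the difference was -0.31 and was still called. The difference was not called in a fit of the arrays of S0 and S4 alone (-0.55). Before scaling, the signal was 1439 intensity units on S4 replicate 4 and 1586 to 1613 on the other S4 arrays. The 75th percentile of S4 replicate 4 was the highest of all arrays, at 533. This second probe lies at row 30 of 384, among the first rows of the array. After nsPEF the same probe differed by -0.15 (-0.51 to 0.22) between 0 and 4 h. Where the 2 probes were averaged, the sham difference was -0.16 and was not called, and the nsPEF difference was 0.13 and was not called either.

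**Figure D2:**
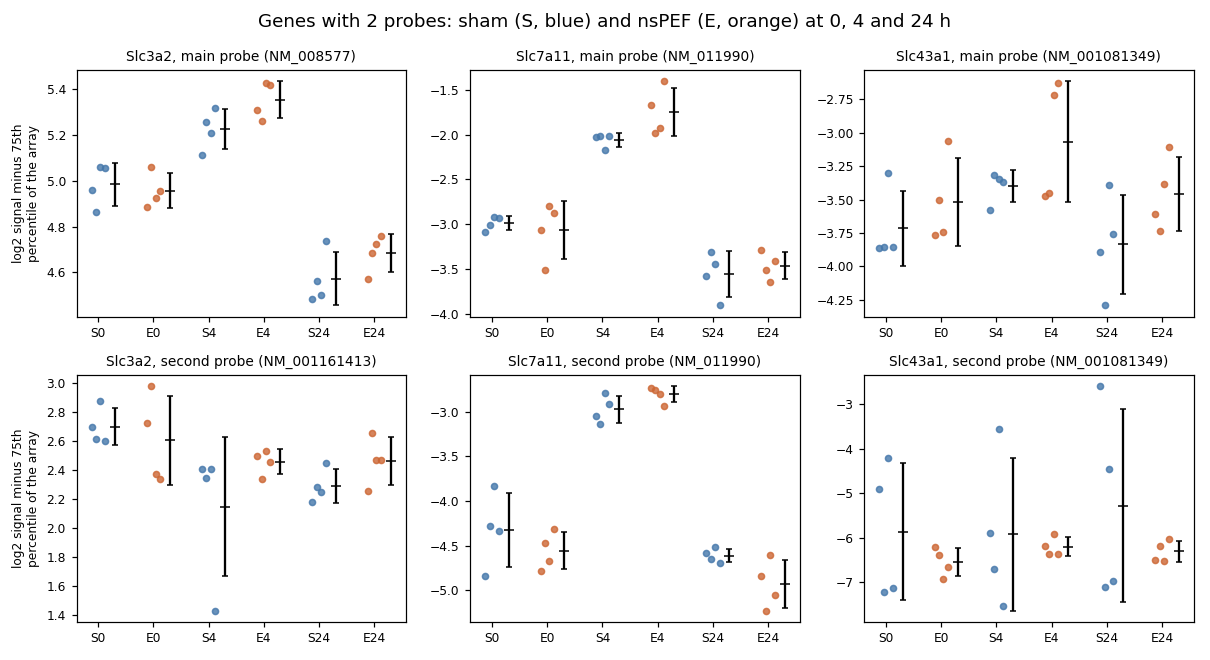
Levels of the 3 genes with 2 probes (log2 of the processed signal minus the 75th percentile of the array) on the 4 arrays of each group, main probe above and second probe below, with the mean and its SD in black. Both Slc7a11 probes were high at 4 h, the Slc3a2 probes moved in opposite directions from S0 to S4 (0.24 and -0.55), and the second Slc43a1 probe was well above background on 4 of 24 arrays.

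Slc38a2 (SNAT2), which takes up alanine, serine and glutamine and whose promoter is shown above, had 5.16, 5.18, 5.24 and 5.17 in S0, 4.80, 4.87, 4.89 and 4.98 in S4, and 5.12, 5.13, 5.19 and 5.22 in S24. After nsPEF the levels were 5.20, 5.24, 5.28 and 5.30 in E0, 4.91, 4.83, 5.01 and 5.06 in E4, and 5.01, 5.10, 5.16 and 5.16 in E24. The arrays of 4 h were below those of 0 h in both treatments, by a difference of -0.30 in each (-0.41 to -0.19 in sham-exposed cells, adjusted p = 4.23e-05 by limma). From 4 to 24 h it rose by 0.28 in sham-exposed cells (0.17 to 0.39) and by 0.16 after nsPEF (0.05 to 0.27). The latter was not called without E4 replicate 2 (0.12) or with normexp (0.13). The small difference at 24 h against 0 h after nsPEF (-0.15, -0.26 to -0.04) was called, but not without E0 replicate 3 (-0.14) or 4 (-0.13) or without E24 replicate 1 (-0.12) or 2 (-0.15). It was also not called without all arrays with replicate number 1 (-0.13), 2 (-0.15) or 3 (-0.16). The call was lost with quantile normalization (-0.10), the percentile over detected probes (-0.12) and normexp (-0.16). No filter and only the arrays of the compared groups (-0.15 each) ended it as well, and spike-in scaling turned the difference to 0.33.

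Slc1a5 (ASCT2), an exchanger of glutamine and other neutral amino acids, stood at 3.34, 3.31, 3.25 and 3.29 in S0, at 3.31, 3.44, 3.45 and 3.67 in S4, and at 3.26, 3.30, 3.22 and 3.45 in S24. After nsPEF it stood at 3.33, 3.45, 3.28 and 3.19 in E0, at 3.58, 3.48, 3.74 and 3.70 in E4, and at 3.22, 3.28, 3.23 and 3.31 in E24. The E4 arrays were above all E0 and E24 arrays, while S4 overlapped with S0 and S24. The nsPEF rise was 1.24-fold (0.31, 0.16 to 0.47, adjusted p = 0.00103 by limma) and was followed by a difference of -0.37 to 24 h, which spike-in scaling moved to 0.03. In sham-exposed cells the difference at 4 h was 0.17 (0.02 to 0.32, adjusted p = 0.053 by limma), which 7 of the processing alternatives called, with values from 0.16 to 0.25. It was also called without S4 replicate 1 (0.22) and, at 0.17, without E0 replicate 2 or 4, E4 replicate 2 or S24 replicate 4. The difference between these changes, in other words the nsPEF effect at 4 h minus that at 0 h, was 0.14 and was not called. Slc1a4 (ASCT1), a carrier of alanine, serine and cysteine, lay between 2.29 and 2.57 in S0 and E0, between 1.51 and 2.82 in S4 and E4 and between 2.18 and 2.73 in S24 and E24. The lowest of these was S4 replicate 4, the array with the highest 75th percentile of signal, and the groups overlapped at every time. Both probes lie in the first rows of the array, at rows 24 and 8 of 384.

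Slc6a9 (GlyT1), the sodium- and chloride-coupled glycine transporter, fell at 4 h and rose again by 24 h. It measured 3.62, 3.57, 3.60 and 3.73 in S0, 2.81, 2.86, 2.72 and 2.94 in S4, and 3.44, 3.54, 3.47 and 3.50 in S24. After nsPEF it measured 3.63, 3.41, 3.60 and 3.55 in E0, 2.91, 2.88, 2.91 and 2.96 in E4, and 3.45, 3.56, 3.67 and 3.54 in E24. The 8 arrays of 4 h were below all 16 others. The difference from 0 to 4 h was -0.80 (-0.92 to -0.68, adjusted p = 2.36e-10 by limma) in sham-exposed and -0.63 (-0.75 to -0.51) in nsPEF-exposed cells, which left 0.575 and 0.645 of the signal. It rose again by 0.65 and by 0.64 to 24 h. S24 lay below S0 by a difference of -0.14 (-0.27 to -0.02, adjusted p = 0.0608 by limma), which spike-in scaling turned to 0.55, and the difference between E24 and E0 was 0.01 (-0.11 to 0.13).

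Slc43a1 (LAT3), a sodium-independent carrier of branched-chain and other large neutral amino acids, was dim and varied among replicates. By its main probe the levels lay between -3.86 and -3.30 in S0, between -3.58 and -3.31 in S4 and between -4.29 and -3.39 in S24. After nsPEF they lay between -3.76 and -3.06, between -3.47 and -2.63 and between -3.74 and -3.10 at the 3 time points. The groups overlapped throughout. The differences from 0 to 4 h were 0.32 (-0.15 to 0.78) and 0.45 (-0.01 to 0.91, adjusted p = 0.0827 by limma), and the latter was called without E0 replicate 4 (0.60), without E4 replicate 1 (0.59) and without E4 replicate 2 (0.58). The second probe was well above background on 4 of 24 arrays and gave intervals as wide as -1.91 to 1.80.

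**Figure D3:**
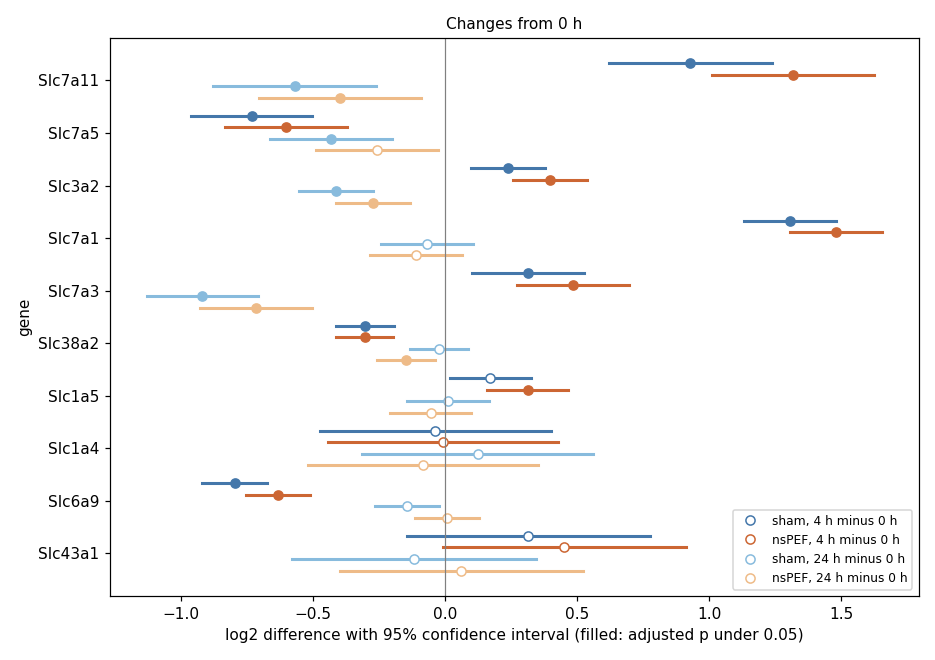
Log2 difference from 0 h (horizontal axis, with 95% confidence interval) for the main probe of each gene in sham-exposed (blue) and nsPEF-exposed (orange) cells, at 4 h in dark and at 24 h in light colours. Filled points passed limma's test at an adjusted p under 0.05. Slc7a1 rose by 1.31 and 1.48 and Slc6a9 differed by -0.80 and -0.63 at 4 h, and every called difference at 24 h was below 0, a direction that turned under spike-in scaling for each called gene except Slc7a3.

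The comparison of nsPEF-exposed with sham-exposed cells at the same time asks what the pulses changed. None of the 10 genes was called by limma at 0 h (0.101% of all genes were), at 4 h (4.03%) or at 24 h (5.74%). At an unadjusted p under 0.05 the counts were 0 at 0 h, 3 at 4 h and 0 at 24 h. Beside these stood 3769, 7914 and 8308 of the 37684 tested probes. The same contrasts without limma's moderation of the variances called 0 of the 10 genes at each time, beside 23, 1452 and 1957 probes. At 0 h the differences ran from -0.08 to 0.20. At 4 h all 10 differences were above 0, from 0.07 for Slc38a2 to 0.33 for Slc43a1, with a median of 0.13 beside -0.02 over all genes. Of the 16842 genes with a tested probe, 7594 were above 0. The 10 share the same 8 arrays, and the number above 0 was 9 with quantile normalization, 9 with array quality weights and 8 with centring by bands of rows. With arrays left out, the difference of Slc1a4 was as low as -0.22. Spike-in scaling, with which the median difference of all probes was 0.20 in this comparison, gave 6 calls, all higher. It called 16.7% of all tested probes, 98.9% of those as higher.

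Of the 10 genes, only Slc7a11 had groups at 4 h that did not overlap, and the share of all genes with such groups was not counted. Slc7a11 ranged from -1.98 to -1.40 in E4 and from -2.17 to -2.01 in S4. Its difference of 0.31 (0.00 to 0.62) had an adjusted p of 0.232 by limma, and it was called with normexp background correction (0.27) and with spike-in scaling (0.50). The second Slc7a11 probe differed by 0.17 (-0.16 to 0.51), with overlapping groups. Slc7a1 differed by 0.19 (0.01 to 0.36, adjusted p = 0.206 by limma), from 5.30 to 5.52 in S4 and from 5.50 to 5.68 in E4. Slc3a2 differed by 0.13 (-0.01 to 0.27) with its main probe and by 0.31 (-0.06 to 0.67) with the second. For Slc1a5 the difference was 0.02 at 0 h, 0.16 (0.00 to 0.31) at 4 h and -0.05 at 24 h. When each band of 48 rows of spots was centred on its own, these became -0.32, -0.27 and -0.44 and each was called. That centring called 2228, 6219 and 5356 of the 37684 tested probes at 0, 4 and 24 h, with 16%, 23% and 32.6% of those higher. For this probe near the edge of the array the sign thus turned at 0 and 4 h, and the cause was not tested.

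At 24 h the differences ran from -0.16 for Slc1a4 to 0.38 for Slc43a1 (-0.08 to 0.84). The change of the nsPEF effect between 0 and 4 h was called for none of the 10 genes (0.0356% of all genes). That between 0 and 24 h was called for none either (0.368%). At an unadjusted p under 0.05 there were 0 of 10 in both, beside 3517 and 6304 of the 37684 tested probes. The change between 0 and 4 h was 0.39 for Slc7a11, with an adjusted p of 0.578 by limma, and 0.17 for Slc7a1. A difference below the threshold does not show equal levels. In data simulated for nsPEF against sham at 4 h, over 37684 probes, 100 probes drawn at random were changed by 0.5 on the log2 scale. Another 100 were changed by 1, and the remaining probes were left unchanged. Of these 2 sets, 45 and 75 were recovered. The rates are those of randomly drawn probes in that setting and were not measured for the 10 genes. The intervals at 4 h allow a difference of up to 0.62 for Slc7a11 and up to 0.18 for Slc38a2.

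**Figure D4:**
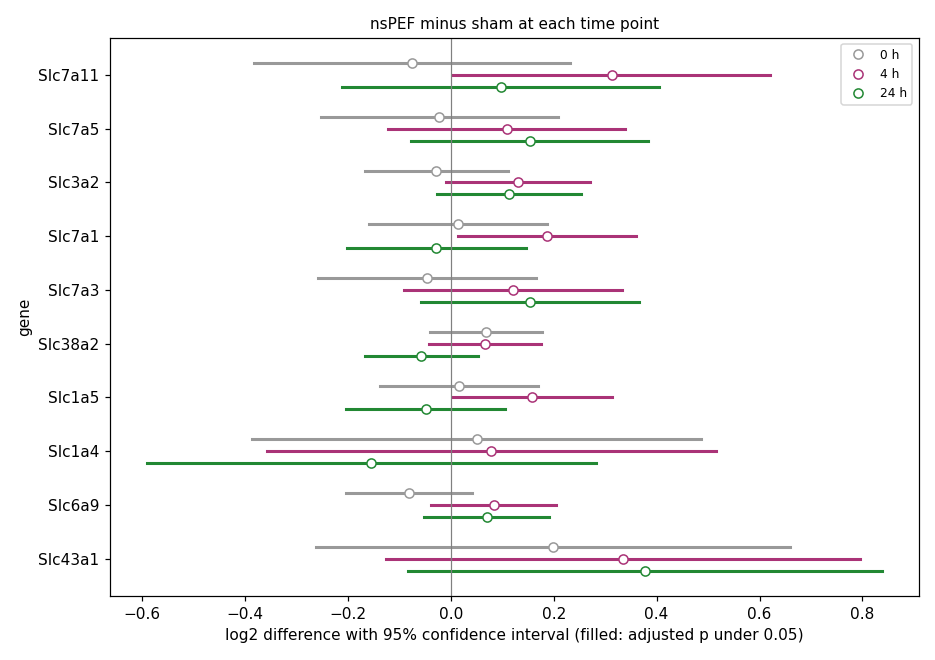
Log2 difference between nsPEF-exposed and sham-exposed cells (horizontal axis, with 95% confidence interval) for the main probe of each gene at 0 h (grey), 4 h (purple) and 24 h (green). Open points did not pass limma's test. The differences at 4 h lay between 0.07 and 0.33 with this scaling, against -0.08 to 0.20 at 0 h, and no gene passed.

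Other amino acid transporters on the array changed with time in both directions. Of 36 further transporters of the plasma membrane, 23 were tested, and from 0 to 4 h in sham-exposed cells 6 of these rose and 8 fell. Of 24 transporters of mitochondria, lysosomes and vesicles, 21 were tested, and 9 rose and 9 fell. Their medians were -0.07 and 0.00, and of 225 further Slc genes tested 152 were called. The shares called in these 3 lists were 60.9%, 85.7% and 67.6%, beside 65.4% of all genes. Of the amino acid transporters among these, Slc16a10 (TAT1, a carrier of aromatic amino acids) had the highest fitted difference. Slc1a2 (the glutamate transporter GLT-1) and Slc25a15 (the mitochondrial ornithine carrier) came next.

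Slc25a15 was at -3.85, -3.83, -4.20 and -3.73 in S0 and at -1.80, -2.00, -1.92 and -1.89 in S4, a 4.00-fold rise (2.00, 1.70 to 2.30), beside a rise of 1.96 after nsPEF. It carries ornithine, as does Slc7a1 at the plasma membrane. Slc16a10 and Slc1a2 passed the filter for tested probes only through their 4 h arrays, and neither was well above background in S0. Their rises are given as bounds, at least 2.22-fold and at least 1.25-fold, so that their order against Slc25a15 is not known. With normexp background correction the differences of Slc16a10 and Slc1a2 were 0.12 and -0.06 and were not called.

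Those that fell most were Slc1a3 (the glutamate and aspartate transporter GLAST), Slc7a7 (y+LAT1, another light chain of Slc3a2) and Slc7a4. Slc1a3 was at -1.53, -1.14, -1.21 and -1.34 in S0 and at -3.69, -3.64, -3.61 and -3.42 in S4, a difference of -2.28 (-2.54 to -2.02). Slc7a7 was at -0.09, -1.30, -1.50 and -1.37 in S0 and at -2.71, -2.80, -3.25 and -2.64 in S4, a difference of -1.78 (-2.25 to -1.32). Slc7a4 ranged from -5.33 to -0.92 in S0, and its difference of -1.76 was no longer called without S0 replicate 1 (-0.98) or 3 (-1.66) or without S4 replicate 1 (-1.56) or 3 (-1.63).

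Between nsPEF and sham, 1 of the 23 tested transporters of the plasma membrane was called at 4 h and 1 at 24 h. Each is 4.35%, beside 4.03% and 5.74% of all genes. None of the 21 tested transporters of organelles was called. Slc43a2 (LAT4), a close relative of Slc43a1, was at -2.61, -2.59, -2.72 and -2.66 in S4 and at -3.12, -3.15, -3.38 and -3.41 in E4. The groups did not overlap, and the difference was -0.62 (-0.86 to -0.39, adjusted p = 0.00796 by limma), or -0.13 and not called with normexp. Slc1a6 (the glutamate transporter EAAT4) was called as higher in E24 than in S24, by a fitted difference of 1.59 (0.92 to 2.26). It was well above background on none of the S24 arrays and on 1 of the 4 E24 arrays. No lower bound can therefore be given for its rise. Its levels were -5.48, -5.13, -7.10 and -5.17 in S24 and -3.82, -4.16, -4.80 and -3.73 in E24. The adjusted p was 0.00935 by limma, and with normexp its difference was 0.38 and was not called.

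Over the 24 arrays, which share their time points and slides, the levels of Slc7a1 and Slc7a11 had a Pearson r of 0.95 and those of Slc7a1 and Slc6a9 of -0.94, whereas Slc7a1 and Slc1a4 had 0.01. Slc3a2 had an r of 0.88 with Slc7a11 and of -0.30 with Slc7a5, given here as a description of these arrays. Among 17907 probes of named genes that were above background on all arrays, the courses nearest to that of Slc7a1 were those of Rsbn1 and Rasa2, each with an r of 0.99. Nearest to Slc7a11 were Nrg1 and Mgat1 (0.96 each), to Slc3a2 Siah2 (0.97) and Ecm1 (0.96), and to Slc7a3 Kmt5b (0.97) and Atf4 (0.96). Nearest to Slc7a5 were Ephb6 and Acot2 (0.92 each) and to Slc6a9 Nek8 and Map4k1 (0.98 each). For Slc1a5 they were Slc16a1 (0.91) and Piezo1 (0.90), for Slc1a4 A530006G24Rik and Tmprss3 (0.97 each), and for Slc43a1 Gm17753 and Pcp4l1 (0.76 each).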

How the data were processed

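RNA of TM3 cells from 24 samples was labelled with Cy3, mixed with spike-in RNA and hybridized to one-colour Agilent mouse arrays. The authors read the scans with Agilent Feature Extraction 12.0 (per the labels), and the deposited scanner text holds processed signal intensity per spot, background-subtracted and detrended but not scaled between arrays. A further table that was deposited for all arrays holds log2 values, which the authors shifted to the 75th percentile and set to a median baseline per probe in GeneSpring, used here as an alternative. Its values deviated from probe means as the scanner values did (r = 1.00).

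Here, control and outlier-marked spots were left out (0 spots were saturated), spots of a probe were averaged, log2 was taken and the 75th percentile of each array was subtracted. Tested were 37684 of 56605 probes, those with 2 or more arrays of some group well above background. With limma 3.58.1 (R 4.3.3, data.table of version 1.17.8), means of the 6 groups were fitted over all 24 arrays, and p-values were two-sided and adjusted by Benjamini-Hochberg over all tested probes. In the methods, treatment, time and their interaction were tested by two-way ANOVA over all time points, and these terms were not tested here; as an alternative, the contrasts between groups were taken without moderation. Gene symbols came through RefSeq transcripts, which named 61.1% of probes. The number of arrays limits the precision. The script was tested on simulated data.

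The members, the lists of other transporters, markers and motifs were chosen with earlier results of these data known. Named were the 10 members, of the other transporters the 3 that rose and the 3 that fell most in sham-exposed cells at 4 h and those called for nsPEF against sham, and for each member the 2 genes with the nearest course, which for Slc38a2 are not reported here. Alternatives were other scalings (quantile, spike-in, detected probes), normexp background with an offset of 50, other filters, spots kept, probes averaged, array weights, only the compared groups, a replicate block, rows centred in bands, and leaving out arrays. Columns of per-sample values that could not be matched numbered 0.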

Additional observations from a re-analysis of the deposited data

Results flagged for a closer look

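In 78 groups of 4 arrays (13 probes by 6 groups), 4 held an array far from the other 3 by Dixon's test, where chance gives about 1 in 20. Slc7a11 in S4 replicate 3 was at -2.17, below the other S4 arrays at -2.03 to -2.01. The second Slc3a2 probe was at 1.43 in S4 replicate 4, against 2.35 to 2.41 on the others. Slc1a4 was at 2.18 in S24 replicate 4, against 2.66 to 2.73. Slc43a1 was at -3.30 in S0 replicate 3, against -3.86 to -3.85.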

How the results depend on the processing

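Of the counts of called genes, 146 of 154 values under the processing alternatives stayed within 1.5 times the reported count, as did 304 of 308 with arrays left out. Under spike-in scaling 8 genes were called at 24 h against 0 h in sham-exposed cells, all higher, in place of 4 lower, and 6 higher for nsPEF against sham at 4 h. For nsPEF at 24 h against 0 h the count was 2 with no filter and 2 with only the arrays of the compared groups, and 2 to 5 with arrays left out (2 without E0 replicate 3, without E0 replicate 4 and without all arrays numbered 1 or 3). For nsPEF against sham 1 gene was called with normexp at 4 h (Slc7a11), and centring by bands of rows called 1 gene (Slc1a5) at 0 h, 1 at 4 h and 1 at 24 h, each lower. With arrays left out the counts ranged from 6 to 8 for sham and 8 to 9 for nsPEF from 0 to 4 h, from 6 to 8 in both from 4 to 24 h and from 3 to 5 for sham at 24 h against 0 h, and were 0 for nsPEF against sham at each time.

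Among differences called before or after the change of setting, those that turned direction on the log2 scale were -0.16 for Slc3a2 with its probes averaged, -0.061 for Slc1a2 with normexp (both sham, 4 h against 0 h), and with centring by bands -0.32 and -0.27 for Slc1a5 (nsPEF against sham at 0 and 4 h). Of the differences called with either scaling, spike-in scaling turned 15. At 24 h against 0 h in sham-exposed cells these were Slc7a11 0.13 (second probe 0.41), Slc7a5 0.27, Slc3a2 0.28, Slc7a1 0.63, Slc38a2 0.68, Slc6a9 0.55 and Slc43a1 0.58. After nsPEF they were Slc7a11 0.081, Slc3a2 0.21, Slc7a1 0.37, Slc38a2 0.33 and Slc1a5 0.42, and from 4 to 24 h they were Slc1a5 at 0.49 (sham) and 0.028 (nsPEF). The causes of the other changes were not tested.

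Same-numbered replicates deviated together in some cases and not in others. Of 36 correlations, from -0.21 to 0.29, 12 were over 0.1, and in 14 the best match was the same number. The numbers were not taken as pairs in the main fit. The paper states that tests of a biological replicate shared a cell suspension, so a pairing by number remains possible. With the replicate number as a block the counts were 7, 4 and 8 for sham (0 to 4 h, 0 to 24 h and 4 to 24 h), 9, 5 and 8 for nsPEF, and 0 for nsPEF against sham. The same fit called 22423, 14052 and 21856 of the 37684 tested probes for sham and 23239, 16197 and 21486 for nsPEF. For nsPEF against sham it called 53, 1216 and 1890 at 0, 4 and 24 h. The block added Slc43a1 from 4 to 24 h in sham-exposed cells (-0.43) and from 0 to 4 h after nsPEF (0.45), and Slc7a5 at 24 h against 0 h after nsPEF (-0.26).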
